A study of Homo sapiens with 3 samples.

Results

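SNAREs and vesicle coat proteins, the machinery that forms transport vesicles and fuses them with their target membranes, were followed by ribosome profiling in HEK293T cells with and without the aminoglycoside G418. The genes were taken by symbol: syntaxins, VAMPs and other SNAREs, the SNARE disassembly factors NSF and NAPA, coat subunits of COPI and COPII, p24 cargo receptors (TMED), clathrin chains, and subunits of the adaptor complexes AP-1, AP-2 and AP-3. Of 8812 transcripts listed in all 3 libraries, 1 per gene, 73 were members. Among them were 30 SNAREs, 5 COPI subunits, 9 COPII subunits, 7 p24 proteins, 3 clathrin chains and 16 adaptor subunits, and the remaining 3 were NAPA, SEC22A and SEC23IP. Readthrough was scored for 57 of them, chosen by a minimum mean number of reads in the coding sequence (CDS). The scored member with the fewest CDS reads had a mean of 142, and of the other 16 the one with the most had 126. A further gene that the symbols take, AP3B2, was listed in G418 A only, and NSF, COPB1, COPB2, TMED2 and TMED10 are not analysed here.

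SNAREs are short proteins with a coiled-coil motif that zippers with the motifs of other SNAREs to pull a vesicle and its target membrane together. They are classed as Q or R by a residue at the centre of the bundle, and the Q class is divided into Qa, Qb and Qc. Most are tail-anchored: a single membrane helix lies at the very C-terminus and is inserted only after the stop codon has been reached. COPII coats carry cargo out of the endoplasmic reticulum, COPI coats return cargo from the Golgi, and clathrin with its adaptors serves the plasma membrane, endosomes and the trans-Golgi network. A ribosome that reads through a stop codon adds residues behind these C-termini.

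HEK293T is a line from human embryonic kidney that expresses the SV40 large T antigen. It was profiled as Untreated A and Untreated B, with no drug, and as G418 A, kept for 24 hours in 500 µg/mL G418. G418 binds the decoding centre of the ribosome and lowers its accuracy. A single G418 library is analysed here. No error between treated cultures can be given, and no difference between conditions was tested as a main result. The intervals are exact Poisson or Wilson 95% intervals, which cover counting error only. The labels name no batch and do not say whether the untreated libraries came from separate cultures, although the study's text calls its replicate libraries biological replicates. No marker of the cell line was tested. Library depth was 5857230 reads for Untreated A, 9477972 for Untreated B and 7216039 for G418 A. The members took 0.767%, 0.774% and 0.786% of it. A change in ribosome-protected fragments cannot be told apart here from a change in mRNA level, because no RNA-seq enters the comparison.

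The stop codon regions of the members with the highest and the lowest scores are shown first, as RNA from 15 nt before to 12 nt after the stop codon, 5′ to 3′, with the stop codon in capitals (read from hg38 with the coding annotation of GENCODE 44). The first 5 are the members with the highest readthrough score in G418 A among those with at least 10 readthrough reads.
STX5: guggucuuccuugcuUGAacccucucuacu
TMED7: acucguguuggaucaUAAcuacguuuugag
STX6: cucuucuuagugcugUGAcggcggggccuc
STX17: gacaagaaaugcaguUAAaaaccaaauuuc
STX7: uggggauugaaccacUGAaguuauaaagga
The stop codons lie at chr11:62807469-62807471 (STX5, minus strand), chr5:115616209-115616211 (TMED7, minus), chr1:180976570-180976572 (STX6, minus), chr9:99968671-99968673 (STX17, plus) and chr6:132460758-132460760 (STX7, minus), each in the last exon of the listed transcript. Of these, 3 are UGA and 2 are UAA, and the nucleotide after the stop codon is A in 3 and C in 2.

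The next 4 belong to members with a low score or a score of 0 in G418 A. Their annotated stop codon is nevertheless the one used by the MANE Select transcript, the reference isoform of the gene. In the whole 3′UTR, AP2S1 had 45 reads and AP2M1 29 in G418 A, those of AP2M1 all beyond its scored region of 18 nt.
STX4: gucacagugguuggaUAAugucgcacauug
NAPA: gaggaggaccugcgcUAAgccccacccagc
AP2S1: cuacagucccuggagUGAgggcaggcgagc
AP2M1: uaugaaacucgcugcUAGcugccacuaggc
These stop codons lie at chr16:31039801-31039803 (STX4, plus), chr19:47488288-47488290 (NAPA, minus), chr19:46838447-46838449 (AP2S1, minus) and chr3:184183614-184183616 (AP2M1, plus), in exon 10 of 11 of STX4 and in the last exon of the others. All 3 stop codons occur among them. The motifs CUA, CAAUUA and CARYYA (R a purine, Y a pyrimidine) were searched right after the stop codon on the coding strand. CAAUUA is the hexanucleotide that the study found to promote readthrough most in its G418-treated cells. CUA followed the stop codon of TMED7, a UAA, alone among the 55 scored members with a matched annotation, and of 0.765% of all 8493 matched transcripts. CAAUUA and CARYYA followed that of 0 scored members, and of 0% and 0.412% of all matched transcripts.

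Ribosome density past the stop codons of vesicle genes was far higher in G418 A than in either untreated library. The measure is the ribosome readthrough score (RRTS), which compares ribosome density in the stretch from the normal stop codon to the first in-frame 3′UTR stop (the 3′TC) with CDS density and is given in percent. Pooled over the 57 members it was 1.22% in Untreated A, from 48 reads, and 1.06% in Untreated B, from 70 reads. In G418 A it was 22.1% (20.8 to 23.4), where 1148 such reads were found. This was 19.3-fold above the mean of the untreated libraries, 1.14% ± 0.111 (SD, n = 2). Over all 5684 transcripts that met the same minimum the pooled RRTS was 1.57%, 1.25% and 21.3%. The median RRTS in G418 A was 17.3% over the members and 18.4% over all transcripts.

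The share of members with a score above both untreated libraries was 47 of 57, or 82.5%, against 72% of all transcripts. A score of 0 in G418 A was found for 9 members, or 15.8%, against a background of 24.2%. A longer scored region can hold more reads, and its median length was 93 nt over the members against 66 nt over all transcripts. The part that this length plays in both shares was not tested. A score of 50% or more was found for 10 members, or 17.5%, against 21.3%. On either side of that value lay COPZ1 at 50.95% and STX12 at 42.3%. Of all reads on the 73 members, the 3′UTR held 0.283% (0.238 to 0.336) in Untreated A and 0.230% (0.198 to 0.268) in Untreated B. In G418 A it held 3.06% (2.92 to 3.20). SAR1A alone held 12.4% of the members' 3′UTR reads in G418 A. The 5′UTR share of the members was 1.64%, 1.84% and 1.46%, which was below the 2.35%, 2.45% and 2.15% of all transcripts in each library.

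**Figure D1:**
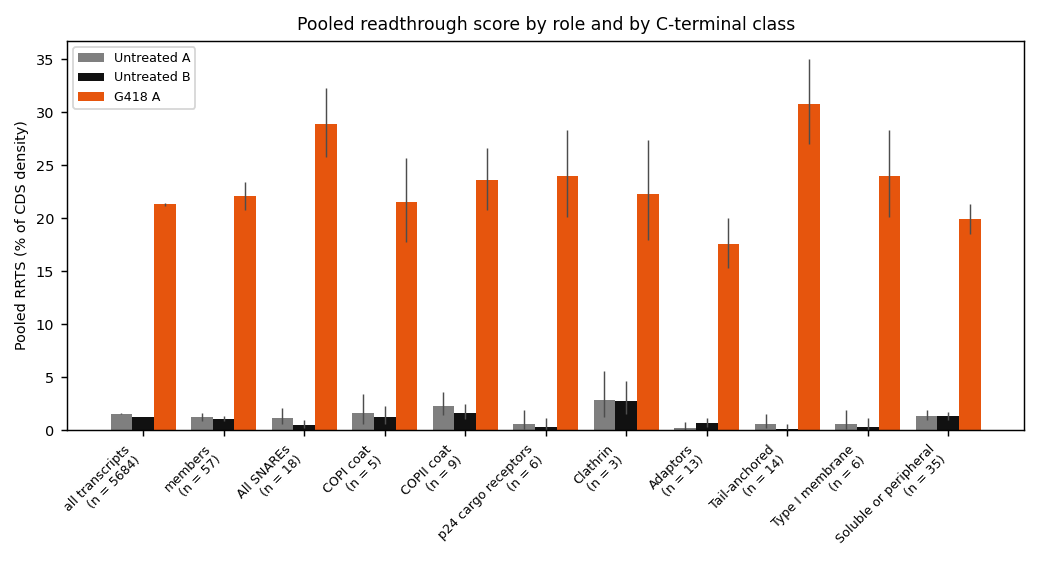
Bars give the pooled RRTS as a percentage of CDS density in each library for all transcripts, the 57 scored members, their main role groups and their C-terminal classes, with exact Poisson 95% intervals for counting error. Each G418 A bar stands above both untreated bars of its group, from 17.6% for the adaptors to 30.8% for the tail-anchored proteins.

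Qa-SNAREs, the syntaxins that organise a SNARE bundle on the target membrane, held both some of the highest and some of the lowest scores. STX5, the syntaxin of traffic between endoplasmic reticulum and Golgi, had no readthrough read in Untreated A or Untreated B and 23 in G418 A, where its RRTS was 101% (63.9 to 151). Ribosomes were thus about as dense between its stop codon and the 3′TC as in its CDS. STX17, the syntaxin of autophagosomes, had 0, 1 and 20 readthrough reads in the same order, and scores of 0%, 3.31% and 84.9% (51.8 to 131). STX7, a late endosomal syntaxin, had 0, 0 and 39 reads and a score of 77.4% (55.0 to 106) in G418 A. STX12, found on early endosomes, had 0, 0 and 28 reads and a score of 42.3% (28.1 to 61.2). The other 3 scored syntaxins of this class had no readthrough read in any library. For STX18 and STX4 that count allows a score of up to 5.96% and 12.1% in G418 A, the upper Poisson bound. For STX3 it allows 74.1% and says little. The stop codons of STX7 and STX5 are UGA followed by A, and that of STX4 is UAA followed by U. That of STX17 is UAA followed by A, the same 4 nucleotides as in STX18. However, the listed STX18 transcript ends at a stop codon other than that of MANE Select. It has no in-frame 3′UTR stop and had no 3′UTR read in any library, so the pair cannot be compared by stop codon context.

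Among the Qb- and Qc-SNAREs, 2 Golgi and endosomal proteins had high scores from few reads. STX6, which works between endosomes and the trans-Golgi network, had 0, 0 and 17 readthrough reads and a score of 86.8% (50.6 to 139) in G418 A. GOSR1, a Golgi SNARE, had 0, 0 and 9 reads and a score of 75.0% (34.3 to 142). GOSR2, also a Qb-SNARE, had none, which allows up to 26.7%. Its listed transcript ends at a stop codon other than that of MANE Select. The remaining Qb and Qc proteins (VTI1A, VTI1B, BNIP1, BET1, BET1L and STX10) were below the read minimum. The groups are therefore known from 3 proteins.

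The scores of the Qbc- and R-SNAREs in G418 A ran from 4.27% for VAMP2 to 62.1% for SNAP29. SNAP29, a SNARE with no membrane helix of its own, had scores of 8.11%, 2.35% and 62.1% (36.8 to 98.1), from 2, 1 and 18 reads. Its relatives SNAP23 and SNAP47 had 10.4% (2.15 to 30.5) and 10.3% (5.17 to 18.5) in G418 A and no read in the untreated libraries. VAMP3, an R-SNARE of recycling endosomes, had 2.59%, 0% and 27.1% (19.8 to 36.3), the last from 45 reads. VAMP8, an R-SNARE of late endosomes, had 0%, 0% and 23.3% (17.3 to 30.7) from 50 reads. VAMP2, best known from synaptic vesicles, had 4.27% (0.880 to 12.5) from 3 reads in G418 A, and its interval lies below those of VAMP3 and VAMP8. YKT6, an R-SNARE held on membranes by lipids on its C-terminus rather than by a helix, had 6.23%, 3.32% and 29.5% (20.7 to 40.9) from 4, 4 and 36 reads. SEC22B rests on 2 reads. SEC22A, a relative that lacks the usual SNARE motif, had 6.25% (0.757 to 22.6).

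NAPA, which recruits the ATPase NSF to spent SNARE complexes, differed little between the libraries. Its score was 0% in Untreated A, 1.88% from 6 reads in Untreated B and 3.42% (1.48 to 6.74) from 8 reads in G418 A, with 234 reads expected there at CDS density. The interval of G418 A contains the value of Untreated B.

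COPI coat subunits differed widely in G418 A. COPZ1, the zeta subunit, had no readthrough read in either untreated library and 57 in G418 A, a score of 50.95% (38.6 to 66.0). COPE, the epsilon subunit, had readthrough reads in all 3 libraries, with scores of 3.94%, 2.38% and 17.3% (12.9 to 22.9). COPA and COPG1, the alpha and gamma subunits, both end in UAA followed by G and had 12.2% (5.27 to 24.0) and 11.5% (3.14 to 29.5), from 8 and 4 reads. ARCN1, the delta subunit, had no readthrough read, which allows up to 6.90% in G418 A. The listed ARCN1 transcript codes for 83 codons and ends at a stop codon other than that of MANE Select.

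Among COPII proteins, the GTPase SAR1A, which starts coat assembly, had the most readthrough reads of any member. Its scores were 1.54%, 0.844% and 25.4% (21.95 to 29.3), from 9, 8 and 190 reads. Its paralogue SAR1B had 0%, 0% and 14.1% (7.31 to 24.7), the last from 12 reads. SEC13, an outer coat subunit that is also part of the nuclear pore, had 4.65%, 5.15% and 25.1% (18.2 to 33.8). The 3′UTR of SEC13 holds no stop codon in frame, so its region runs to the transcript's end. The inner coat subunits SEC23A, SEC23B and SEC24C had 8.64%, 10.6% and 5.67% in G418 A, from 1, 6 and 1 reads. SEC24C stood at 11.4% from 3 reads in Untreated B, above its G418 A value. The nominally highest score of all members, 424% (138 to 990) in SEC24D, came from 5 reads where 1.18 were expected, in a region of 21 nt. SEC24A went the other way on 3 reads in Untreated A and none in G418 A, in a region of 18 nt. SEC23IP, a partner of the inner coat, had 0%, 0% and 57.8% (30.8 to 98.9), from 13 reads in G418 A.

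The p24 proteins are type I membrane proteins that carry cargo between endoplasmic reticulum and Golgi, with short cytosolic tails whose last residues bind COPI and COPII. TMED7 had scores of 11.0%, 0% and 91.1% (59.0 to 134), from 2, 0 and 25 reads. Only 12 nt of its 18 nt region are scored, since the first 6 nt after a stop codon are left out. TMED9 had 0%, 0.548% and 24.7% (19.6 to 30.7), from 81 reads in G418 A. TMED4 had 0%, 0% and 20.8% (12.9 to 31.7), from 21 reads. TMED5 had 12.7% (4.65 to 27.6) from 6 reads in G418 A and TMED3 had none, which allows up to 6.89%.

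Clathrin chains had scores in G418 A of 24.7% (19.0 to 31.6) for the light chain CLTA, 16.5% (10.1 to 25.5) for the light chain CLTB and 25.8% (10.4 to 53.1) for the heavy chain CLTC. These intervals overlap, and that of CLTC rests on 7 reads. CLTA had 8 and 14 readthrough reads in Untreated A and Untreated B, the most of any member over both, and scores of 4.41% and 4.08%. CLTB and CLTC had none. The heavy chain had 9048 CDS reads in G418 A, the most of any member, and its region was 21 nt long.

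The adaptor subunits had the lowest pooled score of the larger groups, 17.6% (15.3 to 20.1) in G418 A over 13 subunits, after 0.220% and 0.634% in the untreated libraries. The highest was AP3M1, the mu subunit of AP-3, at 39.3% (27.1 to 55.2) from 33 reads. AP1S2 had 0%, 0.832% and 35.2% (24.4 to 49.1), AP2B1 had 2.04%, 1.89% and 31.8% (21.7 to 44.9), and AP1G1 had 31.04% (17.7 to 50.4) in G418 A. AP1S1 had 0%, 0% and 14.3% (10.1 to 19.5). AP2S1, the sigma subunit of AP-2 and the member with the highest CDS density, had 0%, 0.263% and 5.31% (3.09 to 8.50), from 0, 1 and 17 reads where 320.2 were expected in G418 A. AP2M1, the mu subunit that binds cargo, had no readthrough read in any library, which allows a score of up to 15.6% in G418 A. That score covers only a region of 18 nt, and its 29 3′UTR reads in G418 A all lay after the 3′TC. AP2B1, AP2S1 and AP2M1 belong to the same complex, and their G418 A intervals do not overlap between AP2B1 and the other two.

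**Figure D2:**
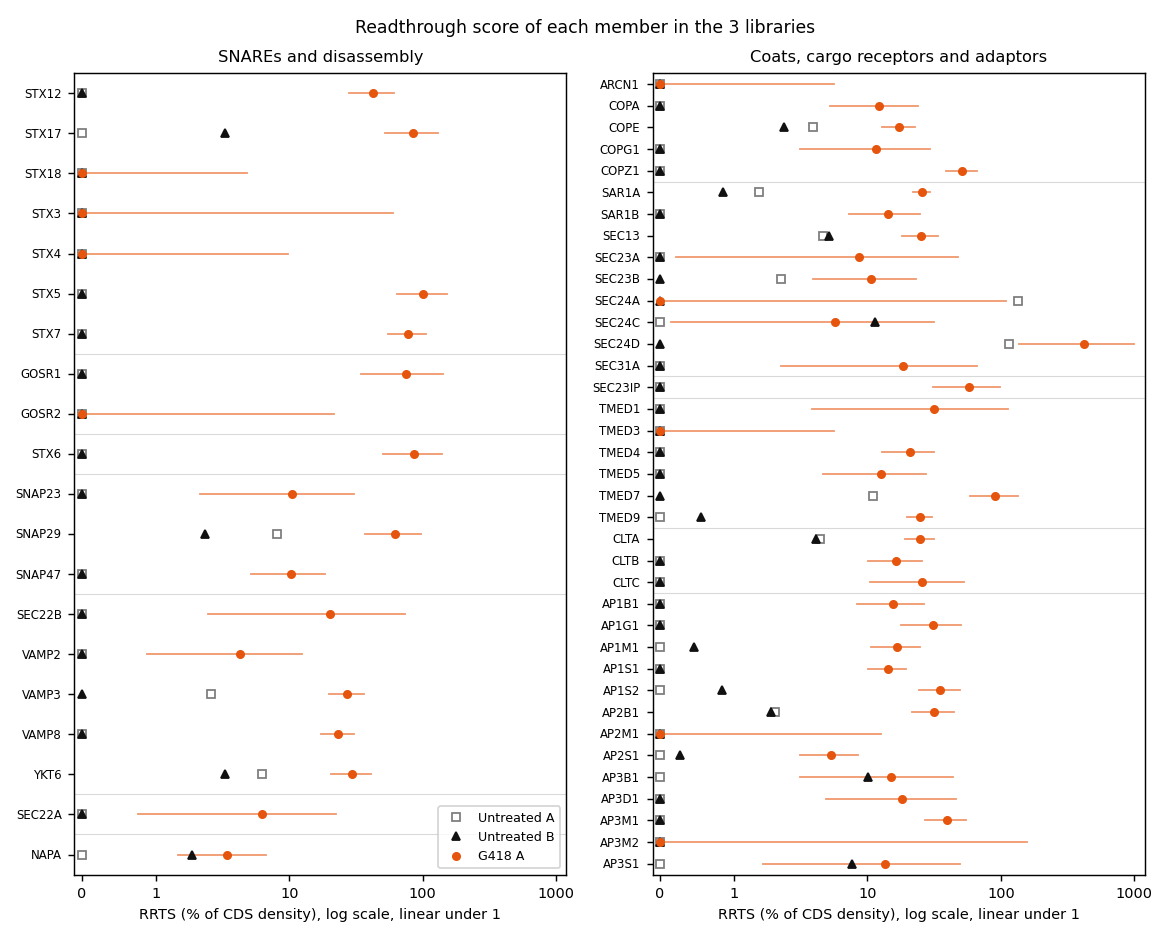
Points give the RRTS of each of the 57 scored members, in percent of CDS density on an axis that is logarithmic above 1 and linear below, for Untreated A (squares), Untreated B (triangles) and G418 A (circles). Lines are exact Poisson 95% intervals of G418 A, or run to the score that 3 reads would give where no read was found, and grey rules separate the role groups. G418 A lies above both untreated libraries for 47 members, and long lines mark scores that rest on few reads.

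Readthrough reads, those that lie in the scored region, were few without the drug. The study found that the reading frame of the CDS was lost in the 3′UTRs of its untreated cells. Frame was not examined here, so these reads are not shown to come from readthrough. Of the 57 members, 36 had no readthrough read in either untreated library, or 63.2%, against 65.3% of all transcripts. In 8 of these there was none in G418 A as well, 14.04% of the members against 21.1%. The part that the longer regions of the members play in these shares was not tested. A score above 0 in both untreated libraries was found for 7 members, against a background of 11.6% of all transcripts. They were SNAP29, YKT6, COPE, SAR1A, SEC13, CLTA and AP2B1. Their untreated scores ran from 0.844% for SAR1A to 8.11% for SNAP29, and each of the 7 had a higher score in G418 A than in either untreated library.

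Scores of 0 were more frequent among transcripts that end at a stop codon other than that of MANE Select. Of the 57 members, 55 had a stop codon matched to the annotation. In 8 of these (STX3, STX18, GOSR2, SNAP23, ARCN1, SEC13, TMED1 and TMED3) the stop codon differed from that of MANE Select, and 5 of the 8 had a score of 0 in G418 A. The other 3 were SEC13, SNAP23 and TMED1. Among the 47 with the MANE Select stop codon, 4 had a score of 0, namely STX4, SEC24A, AP2M1 and AP3M2. Over all transcripts the shares with a score of 0 were 60.7% and 21.3%. Whether reads of these genes come from isoforms without the listed stop codon was not tested. The comparison was chosen after the values were seen.

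UGA had the highest pooled score of the stop codons among the members, as among all transcripts. In G418 A the pooled RRTS was 25.8% (24.0 to 27.8) over the 29 members that end in UGA, 18.4% (16.2 to 20.7) over the 21 that end in UAA and 17.1% (14.6 to 19.8) over the 7 that end in UAG. Over all transcripts it was 29.9%, 12.2% and 19.2%. The UAA members thus stood above the UAA transcripts at large, and the UGA members below the UGA transcripts at large, by more than counting error. Counting error leaves out the spread between genes. The median scores were 13.6% against 9.07% for UAA and 25.4% against 27.5% for UGA. These differences were not tested. By the nucleotide that follows, the members had 28.6% before A, 23.1% before C, 14.7% before G and 27.4% before U, with 20, 13, 16 and 8 members. Over all transcripts the order was another one, with 21.8% before A, 29.1% before C, 17.2% before G and 21.6% before U. In these pooled scores C stood highest there and below A and U among the members, while G stood lowest in both. The members' medians were 13.1% before A, 15.02% before C, 16.6% before G and 35.9% before U, so A stood lowest. Over all transcripts the median was highest before C, at 26.4%, and lowest before G, at 14.6%. SAR1A gave 190 of the 302 readthrough reads of the members with U. UGA is the stop codon of 12, 3, 9 and 5 members before A, C, G and U. The part that stop codon identity plays in these orders was not tested. All 16 members with G after the stop codon had a score above both untreated libraries, against 70.3% of all such transcripts. Their median region was 121.5 nt long, against 75 nt, and the part that this length plays was not tested. None of the 16 reached 50%, against 14.4%.

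C-terminal classes were assigned by gene symbol, not by the end of the listed transcript. The listed STX3, STX18 and GOSR2 (tail-anchored) and TMED1 and TMED3 (type I) end at stop codons other than that of MANE Select. Whether these transcripts code for the C-terminus of their class was not tested. The pooled RRTS in G418 A was 30.8% (27.0 to 35.0) over 14 tail-anchored proteins. It was 24.0% (20.1 to 28.4) over 6 type I membrane proteins of the p24 family and 19.9% (18.5 to 21.4) over 35 soluble or peripheral proteins. The medians were 25.2%, 22.7% and 15.6%. In Untreated A the same classes had 0.593%, 0.536% and 1.37%, and in Untreated B 0.103%, 0.326% and 1.31%, so their order was not that of G418 A. The classes differ in their stop codons: 9 of 14 tail-anchored proteins end in UGA, against 1 of 6 and 17 of 35. Among UGA members alone, the pooled score was 44.6% (38.0 to 52.0) over 9 tail-anchored proteins and 22.8% (20.9 to 24.9) over 17 soluble or peripheral ones. The tail-anchored value rests on few proteins, since 4 of the 14 had a score of 0. The UGA members also differ in the next nucleotide. It is G in COPE, CLTC, AP1B1, AP1G1, AP1M1, AP2S1, AP3D1 and AP3M1, all soluble or peripheral, and in no tail-anchored UGA member. The part that sequence after the stop codon plays in these differences was not tested.

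The stop codon regions of 3 pairs of paralogues are printed because their last codons are alike.
TMED4: gccaagaagcuggugUAGugcccucuuugu
TMED9: gccaagaagcuugugUAGcugucccaggcg
SAR1A: ucccaguauauugacUGAuguuuggacggu
SAR1B: gcacaguacauugauUAAcacaaacucaca
SEC23A: guguccagugcugcuUGAagugcuaauaau
SEC23B: gucuccagugccuguUAAgcugaggauaca
They lie at chr7:44579479-44579481 (TMED4, minus), chr5:177595414-177595416 (TMED9, plus), chr10:70152476-70152478 (SAR1A, minus), chr5:134606950-134606952 (SAR1B, minus), chr14:39033239-39033241 (SEC23A, minus) and chr20:18560738-18560740 (SEC23B, plus). TMED4 and TMED9 have 14 of the 15 nucleotides before the stop codon in common, both end in UAG, and 2 of the 12 nucleotides after it are the same. With 19 of 30 shared positions they were the most alike of all 1431 pairs of members, whose median was 9. Their scores in G418 A, 20.8% and 24.7%, differed by less than their intervals. SAR1A and SAR1B share 11 of the 15 nucleotides before the stop codon and 1 of the 12 after it. SAR1A ends in UGA and had 25.4%, while SAR1B ends in UAA and had 14.1%, with intervals that overlap. SEC23A and SEC23B share 11 of 15, and their scores of 8.64% and 10.6% rest on too few reads to tell apart.

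Ribosomes beyond the 3′TC were counted as the 3′UTR reads that lie outside the scored region. Of the members, 21 had at least 10 such reads in G418 A and a 3′TC. In 18 of these the density after the 3′TC was lower than before it. COPZ1, for example, had 154.9 RPKM before its 3′TC and 2.30 RPKM over the 1266 nt after it. STX7 had 78.3 RPKM before and 0.103 RPKM over the 14816 nt after. The density after is a mean over all that remains of the 3′UTR, and the part that this length plays was not tested. In 3 members, SAR1B, SNAP23 and AP2M1, the density after the 3′TC was at or above that before it, against a background of 9.77% of all transcripts with as many reads. SAR1B had no 3′UTR read in either untreated library and 61 in G418 A, of which 12 lay before and 49 after the 3′TC. Its density was 34.6 RPKM before and 72.2 RPKM after, where 94 nt remain. AP2M1 had no 3′UTR read in the untreated libraries and 29 in G418 A, all after the 3′TC, at 8.79 RPKM over 457 nt. SNAP23 had 3 reads before and 17 after, at 7.70 RPKM and at 9.94 RPKM over 237 nt, and none in the untreated libraries. For SNAP23 and AP2M1 the reads before the 3′TC are too few to tell the densities apart. AP2S1 was close to even, at 23.8 and 22.2 RPKM, with 175 nt after its 3′TC. TMED7 had 82 reads after its 3′TC in G418 A, at 3.81 RPKM, beside 11 in Untreated A and 1 in Untreated B.

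**Figure D3:**
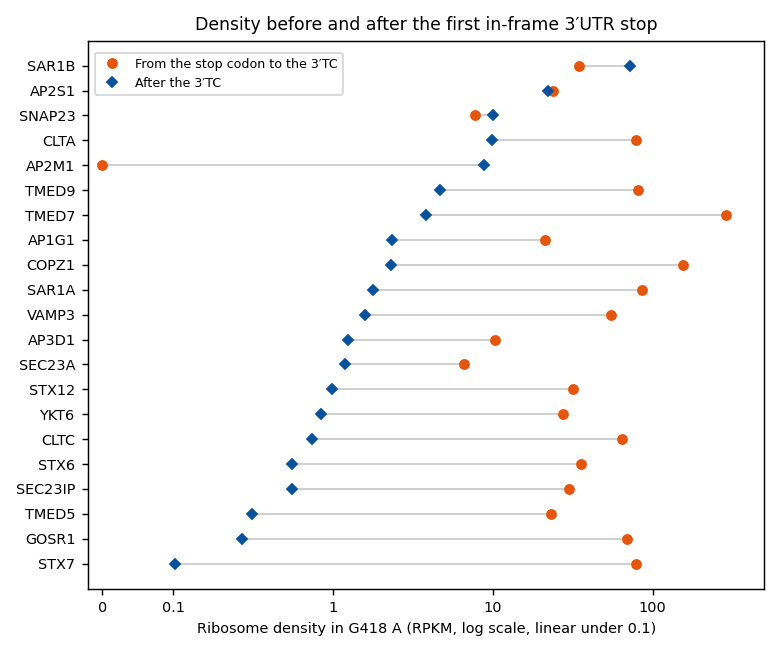
For the 21 members with at least 10 reads after the 3′TC in G418 A, circles give the ribosome density from the stop codon to the 3′TC and diamonds the density after it, in RPKM on an axis that is logarithmic above 0.1 and linear below. The diamond lies to the left of the circle in 18 members, and to the right in SAR1B, SNAP23 and AP2M1. The density after the 3′TC is a mean over the rest of the 3′UTR, whose length differs between members.

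The CDS densities give the ribosome-protected fragments on each coding sequence, scaled to its length and to library depth. The median member had 54.9 RPKM as a mean of the 3 libraries, against 19.8 RPKM for all transcripts. AP2S1 had the highest density, at 385, 405 and 448 RPKM in Untreated A, Untreated B and G418 A. Then came SAR1A, with 324, 324 and 335 RPKM, CLTA, with 279, 326 and 319, COPZ1, with 308, 307 and 304, CLTC, with 316, 307 and 251, TMED9, with 265, 279 and 329, and TMED7, with 258, 226 and 317. AP2S1 was above the rest in each library, while from SAR1A to TMED7 the range of each overlaps that of the next. The median was 35.4 RPKM over the 30 SNAREs and 79.8 RPKM over the other 43 members, a difference that was not tested. VAMP3 led the SNAREs, at 231, 177 and 202 RPKM, followed by VAMP8, at 166, 125 and 134. Of the Qa-SNAREs, STX7 had 103, 107 and 101 RPKM and STX12 had 74.5, 80.4 and 74.5. Among Qb and Qc proteins, GOSR1 had 96.3, 86.9 and 92.4 RPKM, BET1 had 51.5, 39.99 and 71.5, GOSR2 had 51.1, 46.99 and 58.0, and STX6 had 32.8, 34.3 and 41.1. SNAP23 had 114, 96.5 and 73.8 RPKM, with its G418 A value below both untreated ones. STX1A, a syntaxin best known from neurons, had 7.78, 2.91 and 14.5 RPKM, and STX11 had 1.23, 3.43 and 5.34. VAMP2, also known from synapses, had 56.4, 72.7 and 60.1 RPKM.

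**Figure D4:**
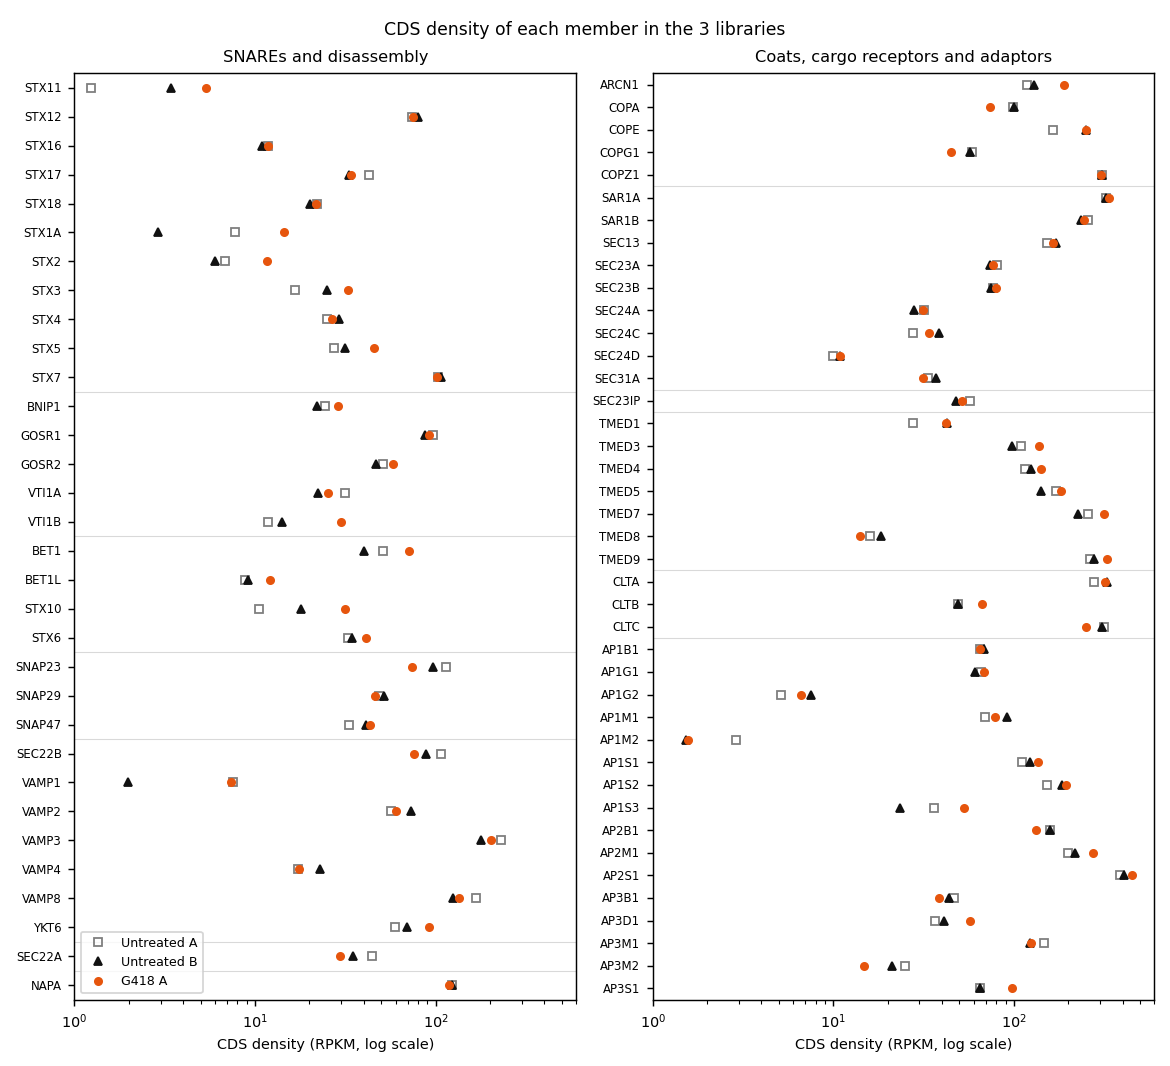
CDS density of all 73 members in RPKM on a log axis, for Untreated A (squares), Untreated B (triangles) and G418 A (circles), with grey rules between role groups. The 3 symbols of most members lie close together, and the widest gaps belong to members of low density such as STX1A, STX11 and VAMP1.

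Differences in CDS density between G418 A and the untreated libraries were small for most coat and SNARE genes. None of the 57 members had a CDS density at least 1.5-fold above both untreated libraries, where 4.12% of all transcripts did. None lay at least 1.5-fold below both, where 0.686% did. The median log2 difference from the untreated mean was 0.03 over the members and 0.07 over all transcripts, and 49 of the 57 members, or 86.0%, lay within 0.5 on the log2 scale, against 86.7% of all transcripts. With edgeR's quasi-likelihood test of 1 against 2 libraries and Benjamini-Hochberg adjustment, 0 of 57 members passed an adjusted p of 0.05, against 2.66% of all transcripts. An unadjusted p under 0.05 was found for 9 of the 57 by edgeR, or 15.8%, against 13.6%. With DESeq2, 0 of the 29 members given an adjusted p passed, against 1.39% of all transcripts given one. Its unadjusted p was under 0.05 for 4 of the 57, or 7.02%, against 7.02%. The spread in these tests comes from the untreated libraries alone.

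G418 A lay above both untreated libraries for 23 members and below both for 14, against 46.3% and 27.9% of all transcripts. Among those below both were COPA, COPG1, CLTC and AP2B1, picked as examples after their values were seen. COPA had 98.4 and 99.9 RPKM in the untreated libraries and 73.9 in G418 A, log2 differences of -0.41 and -0.44 where the untreated libraries differed by 0.02. It had the smallest edgeR p of the members, with an adjusted p of 0.13. COPG1 had 58.6, 57.4 and 44.6 RPKM, log2 differences of -0.39 and -0.36. CLTC had log2 differences of -0.33 and -0.29, and AP2B1 had -0.26 and -0.26. On the high side were 5 of the 6 scored p24 proteins, whose median log2 difference was 0.27. TMED7 had 0.29 and 0.49, TMED3 0.34 and 0.49, TMED9 0.31 and 0.24, TMED4 0.29 and 0.19, and TMED5 0.10 and 0.38. TMED1 was level with Untreated B. STX5 had 27.2, 31.5 and 45.8 RPKM, log2 differences of 0.75 and 0.54, and ARCN1 had 118, 129 and 189.8 RPKM, 0.69 and 0.56. AP3D1 had 36.7, 40.8 and 56.9 RPKM, 0.63 and 0.48, with an adjusted p of 0.142 by edgeR. AP3S1 had 65.0, 65.3 and 97.2 RPKM and AP3M2 had 25.1, 21.0 and 14.7, so subunits of the same AP-3 complex lay on opposite sides.

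The calls depend on which untreated library is used. Against Untreated A alone, 7 members lay at least 1.5-fold higher (STX3, STX5, YKT6, ARCN1, COPE, TMED1 and AP3D1), beside 10.7% of all transcripts, and 2 at least 1.5-fold lower (SNAP23 and AP3M2), beside 1.41%. Against Untreated B alone there were 0 and 0, beside 7.48% and 2.67%. Among the 16 members below the read minimum, 5 lay at least 1.5-fold above both untreated libraries (STX1A, STX2, STX10, STX11 and VTI1B) and 0 below both, where 14.1% and 3.36% of such transcripts did. VTI1B had 46, 89 and 144 CDS reads and STX10 had 44, 122 and 163. Reads of VTI1B, STX18, SEC22B, AP1S2 and AP3S1 may be credited to the wrong place, since the genome holds a copy of at least 80% of their coding sequence at 95% identity or more.

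**Figure D5:**
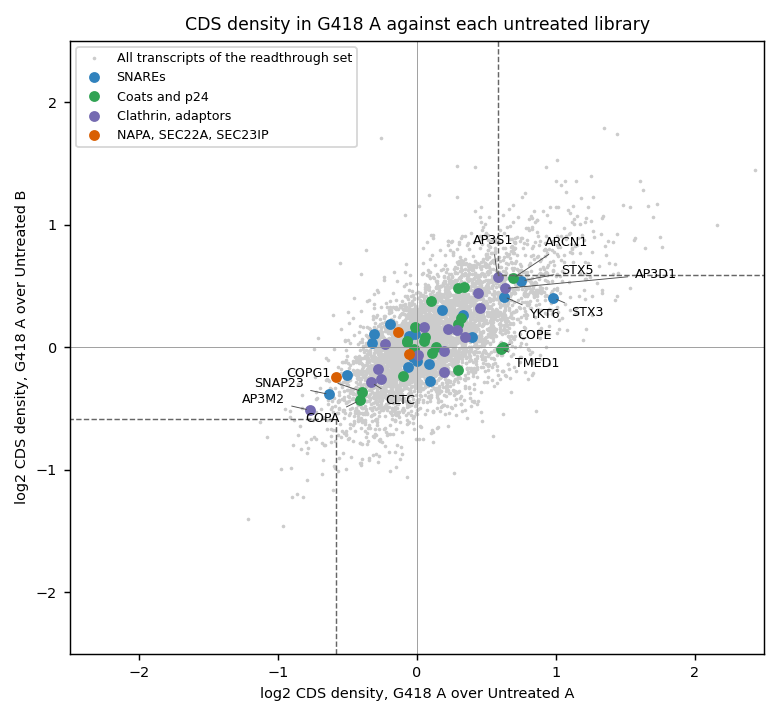
Each point is a transcript of the readthrough set, placed by the log2 ratio of its CDS density in G418 A to that in Untreated A (x axis) and Untreated B (y axis), with the 57 members in colour and the other transcripts in grey. Dashed lines bound the 1.5-fold corners, which hold none of the members, although ARCN1, STX5, AP3S1 and AP3M2 lie close to them.

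A list of other genes of vesicle traffic was examined the same way. Of 76 listed by name, 58 were in all 3 libraries and 53 met the read minimum, and their pooled RRTS was 1.498%, 1.03% and 20.5% in the libraries in the same order. By CDS density 1 of the 53 lay at least 1.5-fold above both untreated libraries and 0 below both. The exception was PREB, the exchange factor that activates SAR1 for COPII assembly, with log2 differences of 0.93 and 0.61. The pooled score in G418 A was 13.5% over 8 SM proteins and SNARE regulators, 21.1% over 8 Arf GTPases and their regulators, 18.9% over 3 COPII assembly factors, 20.3% over 9 cargo receptors, 37.7% over 16 tethers and 15.3% over 9 adaptor and clathrin partners. The tether value came from 57 reads. None of the 53 passed edgeR's or DESeq2's adjusted p of 0.05.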

How the data were processed

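Ribosome profiling libraries of HEK293T cells were grouped by the treatment label into Untreated (2 libraries) and G418 (1 library). According to the study's methods, the authors collapsed duplicates by unique molecular identifier, removed noncoding RNA reads, aligned the rest with STAR to hg38 keeping 1 primary alignment per read, and assigned fragments of 28 to 35 nt to 1 transcript per gene. The submitters' processing notes also name CASAVA 1.8. The authors deposited RPM values per region, and RPKM densities that leave out the CDS ends and the first 6 nt after the stop codon. They also deposited whole-number counts, and as ratios the RRTS and the 3′UTR occupancy.

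Reads were recovered from RPM by dividing by the value of 1 read, which gave whole numbers within 0.00114. Deposited counts of the CDS were 1 lower than these for 9080 of 9099 transcripts in Untreated A, so recovered reads were used. Scoring required an average of 128 CDS reads over the libraries and a region of at least 18 nt. Pooled RRTS is all readthrough reads over those expected from CDS density. A pooled score from 3 reads over the members would be 0.0763% and 0.0456% in the untreated libraries and 0.0577% in G418 A. CDS calls used a 1.5-fold difference from both untreated libraries. edgeR 4.0.16 and DESeq2 1.42.0 (R 4.3.3) were alternatives and were tested on simulated data. Stop codons were matched by transcript and coding length to GENCODE 44 for 71 of 73 members (not SNAP47 and AP1B1). Near-identical copies were searched with BLAST+ 2.17.0.

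Named members were those called by CDS density, the 10 highest scores from at least 10 reads, the 10 lowest upper Poisson bounds, the 2 densest of each role group, those above 0 in both untreated libraries and the one with the most 3′UTR reads. Others named, among them TMED4, COPA, COPG1, AP3D1 and SEC24D, were chosen after their values were seen. Members and lists were chosen with earlier results of these data known.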

Additional observations from a re-analysis of the deposited data

Results flagged for a closer look

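In 3 members the ribosome density after the 3′TC, a region that no comparison of readthrough scores uses, was above that of both untreated libraries and at or above the density before the 3′TC. In G418 A it was 72.2 RPKM for SAR1B, 9.94 RPKM for SNAP23 and 8.79 RPKM for AP2M1. Each of the 3 had 0 reads there in Untreated A and in Untreated B. SAR1B had 49 such reads in G418 A, AP2M1 29 and SNAP23 17. Before the 3′TC, SAR1B had 12 reads in a region of 54 nt, SNAP23 3 in 60 nt and AP2M1 0 in 18 nt. For SNAP23 and AP2M1 these are too few to tell the densities before and after the 3′TC apart. The listed SNAP23 transcript ends at a stop codon other than that of MANE Select, and the part of that in its value was not tested.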

How the results depend on the processing

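Of 52 alternatives to the 6 main values, 42 left the value within its interval, within 1 SD of the untreated libraries or, for a count, within 1.5 times. The pooled RRTS of the members in G418 A moved to 32.1% as a mean of deposited scores over members, in which each member counts equally, and ran from 21.5% to 23.3% otherwise. The untreated pooled RRTS moved to 3.09% as such a mean, to 1.34% with at least 500 CDS reads, to 1.02% with only transcripts that have a 3′TC and to 0.983% without CLTA. Leaving out each untreated library in turn gave 1.06% to 1.22%. The 3′UTR share in G418 A moved to 2.76% without SAR1A. Members higher in CDS density came to 5 at a minimum of 20 reads. Leaving out each untreated library gave 0 to 7 higher and 0 to 2 lower, the larger counts without Untreated B. The 0 counts held with TMM scaling, DESeq2 size factors, the deposited counts, edgeR and DESeq2. TMM shifted the median log2 difference of the members from 0.03 to -0.03. With at least 500 CDS reads, 28 of 31 members scored above both untreated libraries, a lower count because fewer were scored. Leaving out either untreated library gave 47 to 48. Limiting the members to MANE Select stop codons (47 members) or leaving out those with near-identical copies (53) was chosen after seeing the data and moved none of these values beyond those limits. No paired analysis was possible because the groups share only the replicate letter A. With 1 G418 library no difference was tested against the spread between treated cultures, and scores from a handful of reads are limited by depth.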
